A study of Arabidopsis thaliana with 21 samples.

Results

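The trimethylation of lysine 27 of histone H3 (H3K27me3) left in atbmi1abc seedlings was set directly against that left in clfswn seedlings, region by region, at 6584 stretches of the Arabidopsis thaliana genome that carry the mark in wild-type plants. A region was kept when a wild-type H3K27me3 peak of the atbmi1abc table and 1 of the clfswn table were each other's best overlap, on the nuclear chromosomes and in both replicates. The atbmi1abc tables held 9246 wild-type peaks in replicate 1 and 8649 in replicate 2, and the clfswn tables held 10303 and 10192. Matching gave 7586 shared regions in replicate 1 and 7304 in replicate 2, of which 6584 matched again between replicates. Because every region is a wild-type peak, a place marked only in a mutant is outside the set. Wild-type peaks that were not shared were shorter, with a median length of 449.5 to 573 bp against 1494 to 1697 bp, and held fewer wild-type reads.

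Polycomb group proteins keep developmental genes silent through a pair of histone marks. Polycomb Repressive Complex 1 (PRC1) attaches ubiquitin to a lysine of histone H2A (H2AK121ub), and in Arabidopsis the AtBMI1A, AtBMI1B and AtBMI1C RING finger proteins act in it together with the RING1 proteins. Polycomb Repressive Complex 2 (PRC2) writes H3K27me3, with CURLY LEAF (CLF) and SWINGER (SWN) as its methyltransferases after germination. The B3 factors VAL1 and VAL2, which bind a short element called the RY core, are known to bring Polycomb proteins to seed genes when embryonic growth ends.

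The ChIP-seq series holds 21 samples of whole seedlings in the Columbia background (Col-0), collected 7 days after germination, with 1 input sample. The atbmi1abc plants are an atbmi1a/b/c triple mutant that the labels call strong, without naming the alleles. The clfswn plants are a clf28/swn7 double mutant. The controls are wild-type Col-0 seedlings of the same age, and all the groups used here were raised on plates in long days, 2 biological replicates each. For H3K27me3 each mutant was compared with wild-type libraries of its own, which share no peak limits with the other mutant's controls. For H2AK121ub both mutants were compared with the same 2 wild-type libraries, since the 21987 and 22314 wild-type peaks of the replicates have equal limits and reads in both sets of tables, although the labels list separate samples. Whole seedlings hold many cell types, so fewer cells that carry the mark and less mark per cell cannot be told apart. The mutants also develop differently from wild type, and which tissues made up each pool was not measured here.

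The H3K27me3 level is given as the reads of the mutant in a region as a percentage of the reads of its wild type, after adding 1 read to each. Reads were not scaled, because the tables list reads in peaks only and the depth of each library outside peaks is unknown. Every statement on an unscaled level therefore carries the depth of the libraries with it. The wild-type libraries held 4486773 to 9575222 reads in their own peaks, the atbmi1abc libraries 4883860 and 4183475, and the clfswn libraries 717150 and 1037622 in 1678 and 3605 peaks. Which column is the mutant follows from the order of names in the table titles. For H3K27me3 that order is the sole basis of the direction.

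To show what the regions contain, stretches of 200 bp from 4 of them are printed first. PER1, OLEO1 and CRA1 are seed genes whose regions lost reads in both mutants, and LOB belongs to the regions that stayed near the wild-type level in atbmi1abc. For the seed genes the stretch with the most RY cores within the central 1000 bp of the region was taken, and for LOB the stretch nearest the middle, in each case without UTR bases. The capitals mark the RY core, CATGCA or its reverse complement TGCATG, the element read by B3 factors. All are the plus strand of the RefSeq copy of the TAIR10.1 assembly, 5′ to 3′, and they lie at chr1:17780980-17781179 in PER1, chr4:12900706-12900905 in OLEO1, chr5:17756920-17757119 in CRA1 and chr5:25310412-25310611 in LOB.
PER1: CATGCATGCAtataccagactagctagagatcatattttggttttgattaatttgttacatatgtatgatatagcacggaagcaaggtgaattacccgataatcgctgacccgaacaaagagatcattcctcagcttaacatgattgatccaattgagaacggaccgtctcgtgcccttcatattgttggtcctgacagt
OLEO1: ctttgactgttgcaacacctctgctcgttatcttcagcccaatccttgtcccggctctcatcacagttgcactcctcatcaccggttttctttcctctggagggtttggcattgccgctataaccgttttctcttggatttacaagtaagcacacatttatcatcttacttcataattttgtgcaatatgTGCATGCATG
CRA1: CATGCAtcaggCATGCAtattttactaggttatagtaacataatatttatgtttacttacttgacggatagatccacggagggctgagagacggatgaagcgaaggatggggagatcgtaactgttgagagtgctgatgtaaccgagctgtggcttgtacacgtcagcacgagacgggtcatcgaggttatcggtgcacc
LOB: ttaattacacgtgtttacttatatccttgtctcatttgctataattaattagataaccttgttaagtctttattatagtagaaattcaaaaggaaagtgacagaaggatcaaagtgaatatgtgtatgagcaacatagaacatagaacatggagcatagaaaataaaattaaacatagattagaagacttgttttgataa
The stretch in PER1 begins with 3 overlapping matches, and its central 1000 bp hold 5. The OLEO1 stretch ends with 3 overlapping matches out of 6 in the central 1000 bp. The CRA1 stretch has 2 of its 3. The central 1000 bp of the LOB region hold 0. A match of letters is a description and does not show that a factor binds there.

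H3K27me3 fell much further in clfswn than in atbmi1abc. The median region kept 8.04% and 19.5% of its wild-type reads in the 2 clfswn replicates, against 74.6% and 84.7% in the 2 atbmi1abc replicates. On the log2 scale the medians were −3.64 and −2.36 in clfswn (mean −3.00 ± 0.90 SD, n = 2) and −0.42 and −0.24 in atbmi1abc (mean −0.33 ± 0.13 SD, n = 2), and the difference between the mutants was −3.22 in replicate 1 and −2.12 in replicate 2. The medians did not overlap, but with 2 tables against 2 an exact two-sided permutation test cannot give a p below 0.33. The middle range of regions in atbmi1abc was wide, from 44.9% to 103% of wild type in replicate 1 and from 52.0% to 117% in replicate 2. In clfswn it ran from 5.61% to 11.7% and from 13.7% to 28.9%.

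The atbmi1abc seedlings lost the mark from some regions and kept it at others, while the clfswn seedlings lost it almost everywhere. Over the regions the 2 replicates ranked alike in atbmi1abc (Spearman's rho 0.95) and in clfswn (0.82), each over 6584 regions of the same libraries. Between the mutants the ranks were loosely related, with rho 0.19 in replicate 1 and 0.17 in replicate 2. The order of regions was thus largely shared between replicates and not between mutants. In clfswn that order followed the wild-type reads inversely, as given below, which limits what its rho values show.

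**Figure D1:**
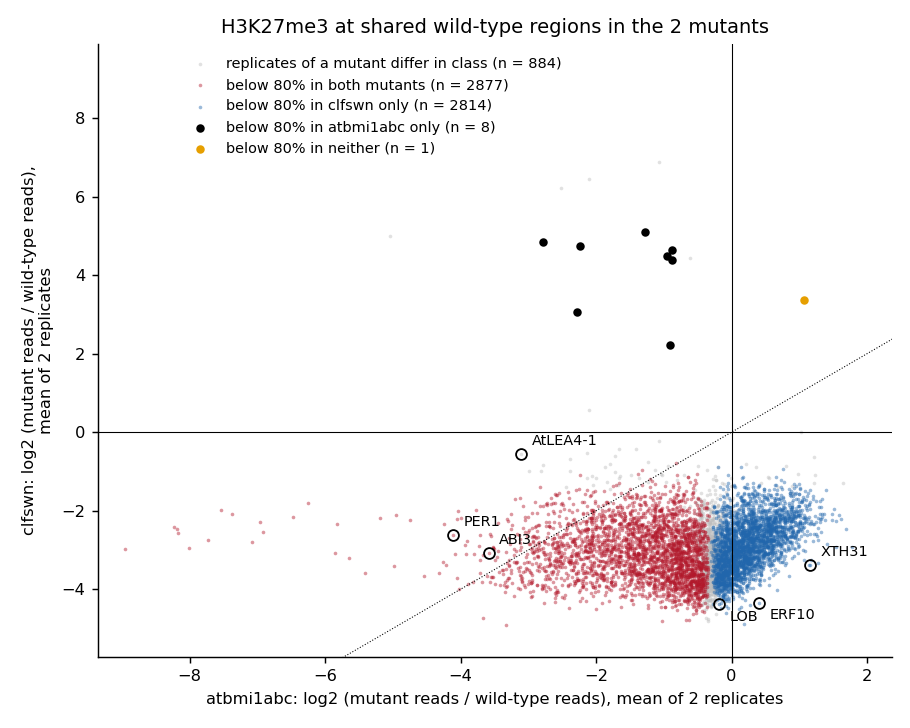
Each point is 1 of the 6584 shared regions, with its H3K27me3 in atbmi1abc on the horizontal axis and in clfswn on the vertical axis, both as log2 of mutant over wild-type reads and as the mean of 2 replicates, coloured by class, and the dotted line marks equal values. The cloud is broad from left to right and narrow from bottom to top, and nearly all of it lies below the dotted line, with PER1 and ABI3 at the left and XTH31 at the right.

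The reads left in clfswn varied less across the regions than those left in atbmi1abc. Per kilobase of region, the median was 35.1 reads in clfswn replicate 1, with 5th and 95th percentiles of 21.3 and 59.4, and 59.1 in replicate 2, from 36.7 to 106. The 95th percentile was thus 2.79 and 2.88 times the 5th in the clfswn libraries. In the atbmi1abc libraries, with medians of 229 and 201 reads per kilobase, the same ratio was 9.80 and 8.52, and in the wild types it was 3.07 and 3.10 for the atbmi1abc tables and 4.14 and 4.10 for the clfswn tables. What a region held in wild type had little to do with what was left in clfswn, since reads per kilobase in clfswn and in its wild type had a rho of 0.10 and 0.08. The percentage kept in clfswn followed the wild-type level inversely, with a rho of −0.80 and −0.79 over the 6584 regions, both measures sharing the wild-type reads. In atbmi1abc that rho was −0.26 and −0.27. The percentage left in clfswn at a strong region and at a weak one are therefore not on an equal footing, and the order of regions in clfswn is used below for a few genes only.

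**Figure D2:**
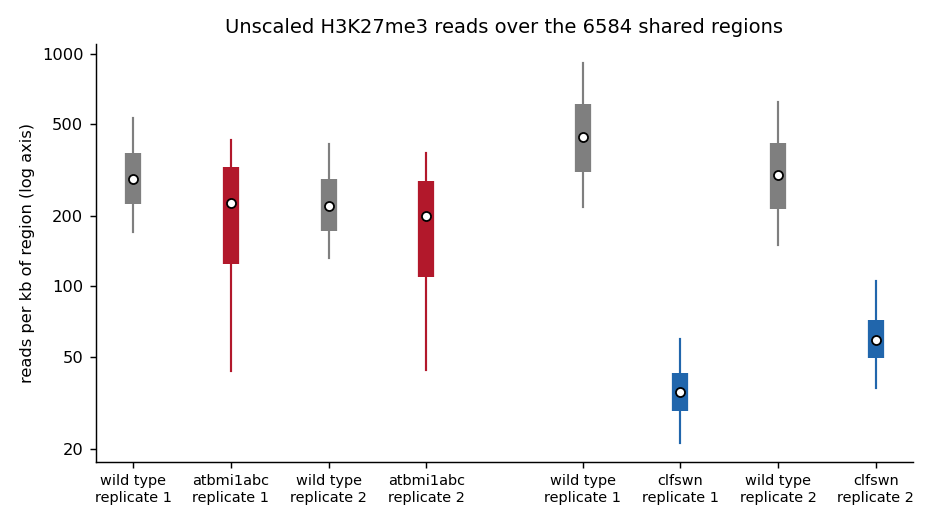
Unscaled H3K27me3 reads per kilobase over the 6584 shared regions in each of the 8 libraries, on a log axis, with the median as a point, the quartiles as a thick bar and the 5th and 95th percentiles as a thin line. The clfswn libraries are low and narrow, with medians of 35.1 and 59.1, and the atbmi1abc libraries have medians of 229 and 201 and a long lower tail that reaches 43.4 and 43.8.

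In the test across all regions, the log2 ratio in clfswn was lower than that in atbmi1abc at 4859 regions, 73.8% of those tested, and higher at 39, or 0.592% (quasi-likelihood fit of edgeR, adjusted p under 0.05 after Benjamini and Hochberg). Against its own wild type, clfswn was lower at 6503 regions, 98.8%, and higher at 14, or 0.213%. The atbmi1abc seedlings were lower than wild type at 931 regions, 14.1%, and higher at 2, or 0.0304%. Both clfswn replicates lay below both atbmi1abc replicates at 5794 regions and above both at 73. These counts depend on the spread between replicates that the fit estimates, its dispersion, which was 0.10 with all tables. Without either atbmi1abc table the spread rested on the 2 clfswn tables alone, whose medians lay far apart, and the dispersion was 0.18. Without either clfswn table it was 0.0089. The calls changed widely with the table left out, as given at the end.

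Much of the difference is a shift shared by all regions. When the median region of each table was set to 0, which removes depth and any uniform loss of the mark together, clfswn was lower than atbmi1abc at 2036 regions, 30.9%, and higher at 2054, 31.2%, by the same test. The sign of a region in this relative comparison sets its distance from the typical region in clfswn against that in atbmi1abc. A positive value can therefore come from a region far below the typical one in atbmi1abc and close to it in clfswn. The relative value is also given below where the unscaled difference at a named gene did not pass the test.

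A region is called reduced in a mutant here when it is under 80% of wild type in both replicates. The level is the study's, but the study applied it to rescaled intensities together with an adjusted p-value, and here it is applied to unscaled reads with no test. By that limit 2877 regions, 43.7%, were reduced in both mutants and 2814, 42.7%, in clfswn only. Another 884, 13.4%, fell on different sides of the limit in the 2 replicates of a mutant, 8 were reduced in atbmi1abc only and 1 in neither. These last counts depend on the unscaled reads, being 406 and 789 with reads over all nuclear peaks as library size and 1191 and 2395 with the median of the shared regions set to 0. The classes are a description by a limit and not a test, and 1125 regions lay between 75% and 85% in at least 1 atbmi1abc replicate. Regions reduced in both mutants had medians of 41.2% and 47.7% in atbmi1abc and of 7.24% and 18.1% in clfswn. Those reduced in clfswn only had medians of 109% and 122% in atbmi1abc and of 8.92% and 21.3% in clfswn. The share reduced in both ran from 38.6% on chromosome 2 to 51.6% on chromosome 3. In atbmi1abc alone, 907 of the regions reduced in both passed the test against wild type and 0 of those reduced in clfswn only, 2 counts that follow from how the classes are defined.

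The 2 classes were alike in size and place. Their median lengths were 1487 and 1474 bp, and 40.4% and 38.2% were centred in a coding exon, while 35.3% and 36.6% were centred between genes. GC content was 35.8% in regions reduced in both and 34.6% in those reduced in clfswn only, and wild-type reads per kilobase were 341 and 283.

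They differed in H2AK121ub, the mark of PRC1, which the rule did not use. Of the regions reduced in both mutants, 2446, or 85.0%, overlapped a wild-type H2AK121ub peak in both replicates, against 1687, or 59.95%, of the regions reduced in clfswn only. The separate replicates gave 86.9% and 88.4% against 63.6% and 65.7%. The H2AK121ub peaks covered 58.1% and 61.7% of the length of the median region reduced in both, and 21.3% and 23.6% of that reduced in clfswn only. Where a region had H2AK121ub, the atbmi1abc seedlings kept 33.6% and 46.6% of those reads in the first class and 48.0% and 72.2% in the second. In unscaled reads the clfswn seedlings kept nearly all of them, 92.0% and 91.1% in the first class and 96.9% and 97.7% in the second. The study reported higher H2AK121ub coverage in clf28/swn7 than in wild type at genes with both marks. That measure differs from unscaled reads over regions. Across regions, the H3K27me3 ratio and the H2AK121ub ratio in atbmi1abc had a rho of 0.52 over 4995 regions in replicate 1 and of 0.56 over 5103 in replicate 2. In clfswn the same rho was −0.21 and −0.20. No test was made across regions, which are not replicates.

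The relation was graded. Among the 436 regions under 20% of wild type in atbmi1abc, 91.3% had H2AK121ub in both wild-type replicates. The share was 88.3% at 20 to 40%, 82.1% at 40 to 60%, 80.2% at 60 to 80%, 72.3% at 80 to 120% and 45.6% among the 1273 regions over 120%. The share thus fell at each step up in H3K27me3. The groups also differed in size, with median lengths of 1342, 1176, 1482, 1950, 1939 and 1051 bp from the lowest to the highest. Their median wild-type reads per kilobase were 367, 301, 330, 374, 342 and 236. A short region has less room to overlap an H2AK121ub peak, and how far this enters the shares was not tested. In atbmi1abc the H2AK121ub left went from 24.0% to 49.1% of wild type in replicate 1 and from 30.3% to 74.5% in replicate 2 between the lowest and the highest of these groups, while in clfswn it stayed between 84.3% and 99.2% in every group and replicate. The H3K27me3 left in clfswn stayed between 6.35% and 11.3% in replicate 1 and between 15.9% and 26.6% in replicate 2.

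The RY core was also more frequent in the regions reduced in both mutants. On either strand of the central 1000 bp, CATGCA was present in 58.3% of regions reduced in both and in 38.7% of those reduced in clfswn only, against 33.4% of 118946 windows of the same length over the nuclear genome. At least 2 matches were found in 28.4% and 12.2%. The share went from 68.6% in the regions under 20% of wild type in atbmi1abc through 63.1%, 55.6%, 49.6% and 42.6% to 34.2% in those over 120%. Among regions with H2AK121ub it was 59.7% in those reduced in both and 40.2% in those reduced in clfswn only, and among regions without it 49.9% of 431 and 36.4% of 1127.

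Of the other elements searched, the G-box followed the pattern of the RY core, and the telobox and the GAGA repeat did not. The telobox, AAACCCTA, was in 14.5% of regions reduced in both and in 17.7% of those reduced in clfswn only, with 11.7% in all windows. The GAGA repeat, GAGAGA, was in 60.4% and 58.5%, with 58.8% in all windows. The G-box, CACGTG, bound by bZIP and bHLH factors, was in 18.6% and 11.8%, with 10.3% in all windows. Like the RY core it became less frequent at each step, from 22.5% through 19.8%, 19.0%, 15.2% and 12.9% to 10.1%, whereas the telobox and the GAGA repeat did not fall at each step. All were searched on both strands, and matches of different motifs can overlap.

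**Figure D3:**
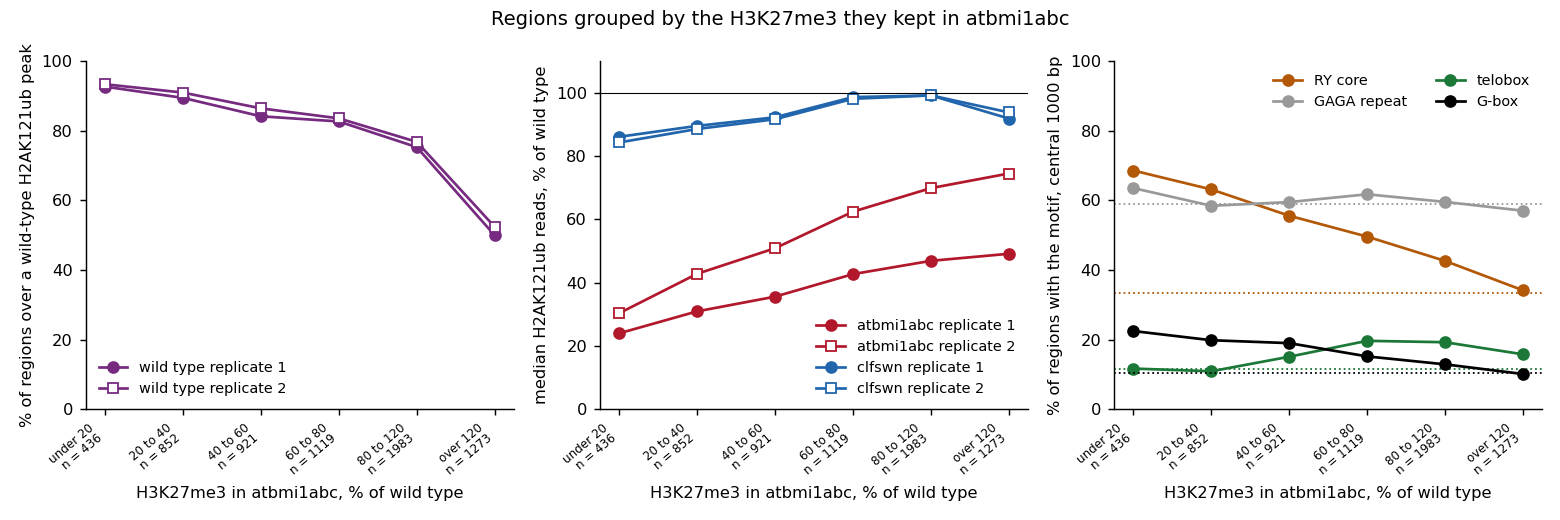
Regions grouped by their H3K27me3 in atbmi1abc as a percentage of wild type, with the share over a wild-type H2AK121ub peak at the left, the median H2AK121ub left in each mutant in the middle and the share with each motif at the right, where dotted lines give the share of all genome windows. From the lowest to the highest group the RY core goes from 68.6% to 34.2% of regions, close to the 33.4% of all windows, and the H2AK121ub left in clfswn stays between 84.3% and 99.2%.

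Among regions reduced in both mutants, with at least 100 reads in each wild-type library and a gene symbol, the 10 with the lowest level in atbmi1abc were over PER1, MPL1, LOG9, DSI-1VOC, LBD40, ABI3, CRA1, PRP3, PSEUDOSRKA and OFP12. These 10 were chosen by their low atbmi1abc values, which also enter their tests in atbmi1abc and their relative differences. Those p-values are therefore a description and not support. PER1 (AT1G48130), a peroxiredoxin of dormant seeds, had 53 and 74 reads in atbmi1abc against 1222 and 988 in its wild type, and 166 and 438 reads in clfswn against 2061 and 1335. At 4.42% and 7.58% of wild type, both atbmi1abc replicates were below both clfswn replicates, at 8.10% and 32.9%. The atbmi1abc value passed the test against wild type (edgeR adjusted p = 3.5e-07), and the difference between the mutants, 1.51 on the log2 scale, did not (adjusted p = 0.11). Relative to the median region the difference at PER1 was 4.20 (adjusted p = 5.2e-11).

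ABI3 (AT3G24650), the B3 factor that directs seed maturation, had 254 and 251 reads in atbmi1abc against 3399 and 2729 in wild type, and 436 and 719 reads in clfswn against 6311 and 3577. Both mutants were far below wild type at ABI3, and their percentages overlapped, 7.50% and 9.23% against 6.92% and 20.1%. The difference of 0.51 between the mutants did not pass the test (edgeR adjusted p = 0.60). Relative to the median region it was 3.18 (adjusted p = 7.3e-13). The mean of ABI3 was 8.32% in atbmi1abc and 11.8% in clfswn, against medians of 79.5% and 12.7% over all regions. The H2AK121ub reads over ABI3 were 477 and 631 in atbmi1abc and 1084 and 1028 in clfswn, against 1687 and 1796 in wild type.

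The 12S globulin gene CRA1 (AT5G44120) had 110 and 118 reads in atbmi1abc against 1507 and 1162 in wild type, and 206 and 466 in clfswn against 2993 and 1898. Its mean was 8.68% of wild type in atbmi1abc and 13.0% in clfswn, with replicates that overlapped. The difference at CRA1 was 0.60 (edgeR adjusted p = 0.53), and 3.29 relative to the median region (adjusted p = 5.2e-11). Its H2AK121ub was lower in atbmi1abc only, at 433 and 589 reads against 1820 and 1916 in wild type, with 2034 and 2095 in clfswn. These H2AK121ub reads are given as values, since no test was run on them.

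By the mean of both replicates, the others of these 10 were MPL1, a lipase (6.63% in atbmi1abc and 11.7% in clfswn), LOG9, named as a cytokinin-activating enzyme (7.18% and 11.6%), and DSI-1VOC (7.59% and 16.4%). The next were LBD40, of the LOB-domain family (7.63% and 10.5%), PRP3, a proline-rich protein of root hairs (9.23% and 8.44%), PSEUDOSRKA, a pseudogene of the self-incompatibility locus (9.66% and 8.74%) and OFP12, of the OVATE family (9.67% and 8.20%). None of these had a difference between the mutants that passed the unscaled test. Relative to the median region the difference was positive and passed at all of them, from 2.43 at OFP12 to 3.79 at DSI-1VOC. Their choice by low atbmi1abc values favours that outcome. At LOG9, H2AK121ub gave 11 reads in each atbmi1abc library, against 334 and 282 in wild type, and 208 and 201 in clfswn.

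At the other end stood regions far below wild type in clfswn and near or above it in atbmi1abc. The lowest difference was over LCR83 (AT5G54225), which encodes a small cysteine-rich protein. It had 728 and 829 reads in atbmi1abc against 505 and 471 in wild type, and 44 and 46 in clfswn against 892 and 627. Both atbmi1abc replicates were above wild type, at 144% and 176%, and both clfswn replicates were far below it, and their log2 ratios differed by −4.72 (edgeR adjusted p = 4.5e-05) and of −2.08 relative to the median region. LCR83 had no H2AK121ub peak.

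XTH31 (AT3G44990), a xyloglucan endotransglucosylase of the cell wall, had 684 and 497 reads in atbmi1abc against 335 and 204 in wild type, and 33 and 59 in clfswn against 601 and 364. It had the highest mean of the named regions in atbmi1abc, 223%, with 9.64% in clfswn, although the atbmi1abc value did not pass the test against wild type (edgeR adjusted p = 0.22). ERF10 had 132% and 4.91%, with 15 and 83 reads in clfswn against 910 and 611 in its wild type, so its clfswn replicates lay far apart. Others of the 10 lowest differences were over MYB108, a MYB factor (147% and 7.60%), GAD, a glutamate decarboxylase (140% and 7.39%), SYP72, a syntaxin (113% and 5.88%), and MIR778 (108% and 5.84%).

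LOB (AT5G63090), which acts at the boundary between a lateral organ and the meristem, had 2722 and 2177 reads in atbmi1abc against 3146 and 2448 in wild type, and 147 and 242 in clfswn against 4841 and 3243. It kept 86.5% and 88.9% of its reads in atbmi1abc and 3.06% and 7.49% in clfswn, with a difference of −4.20 (edgeR adjusted p = 0.00024). Its H2AK121ub was lower in atbmi1abc, at 371 and 571 reads against 1088 and 1076 in wild type, with 1064 and 1093 in clfswn. LOB is thus a region with wild-type H2AK121ub whose H3K27me3 stayed near wild type while H2AK121ub reads were lower.

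HEC3, a bHLH factor of the carpel, gave 2960 and 2562 reads in atbmi1abc against 3681 and 2988 in wild type, and 158 and 271 in clfswn against 5206 and 3565. It resembled LOB in keeping 83.0% and 4.83% on average. The H2AK121ub reads over HEC3 were 465 and 599 in atbmi1abc and 1291 and 1221 in clfswn, against 882 and 761 in wild type. The other clfswn-only regions with the lowest clfswn values were over SK3, a Skp1-related F-box partner (90.9% and 5.13%), MYB102 (94.3% and 5.30%) and the zinc transporter ZIP3 (92.0% and 5.30%). GulLO6 (78.8% and 3.69%) and ASL1, a relative of LOB (75.6% and 4.16%), had differences as low, of −4.42 and −4.19, and lay just under the limit in at least 1 atbmi1abc replicate.

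8 lists of developmental genes, 118 genes in all, were looked up by the shared region that overlaps the gene and its 2000 bp upstream the most. Of these, 88 had a region, 58 of them, or 65.9%, in the class reduced in both mutants, 14 in clfswn only and 16 mixed. Over all regions the shares of these classes were 43.7%, 42.7% and 13.4%, and the class counts of each list below stand against them. SESA1, SESA2, SESA3 and SESA4 lie in the same region, which counts once for each gene. All 88 passed the test in clfswn against wild type, 66, or 75%, had a lower ratio in clfswn than in atbmi1abc, near the 73.8% of all regions, and 25, or 28.4%, were lower in atbmi1abc, against 14.1% of all regions. For 8 of them, LEC1, OLEO2, WOX2, WOX8, FIE, LHP1, YUC5 and YUC7, the region lay only upstream. Examples are the genes with the lowest and highest difference in each list, and any other gene was named after its values were seen.

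**Figure D4:**
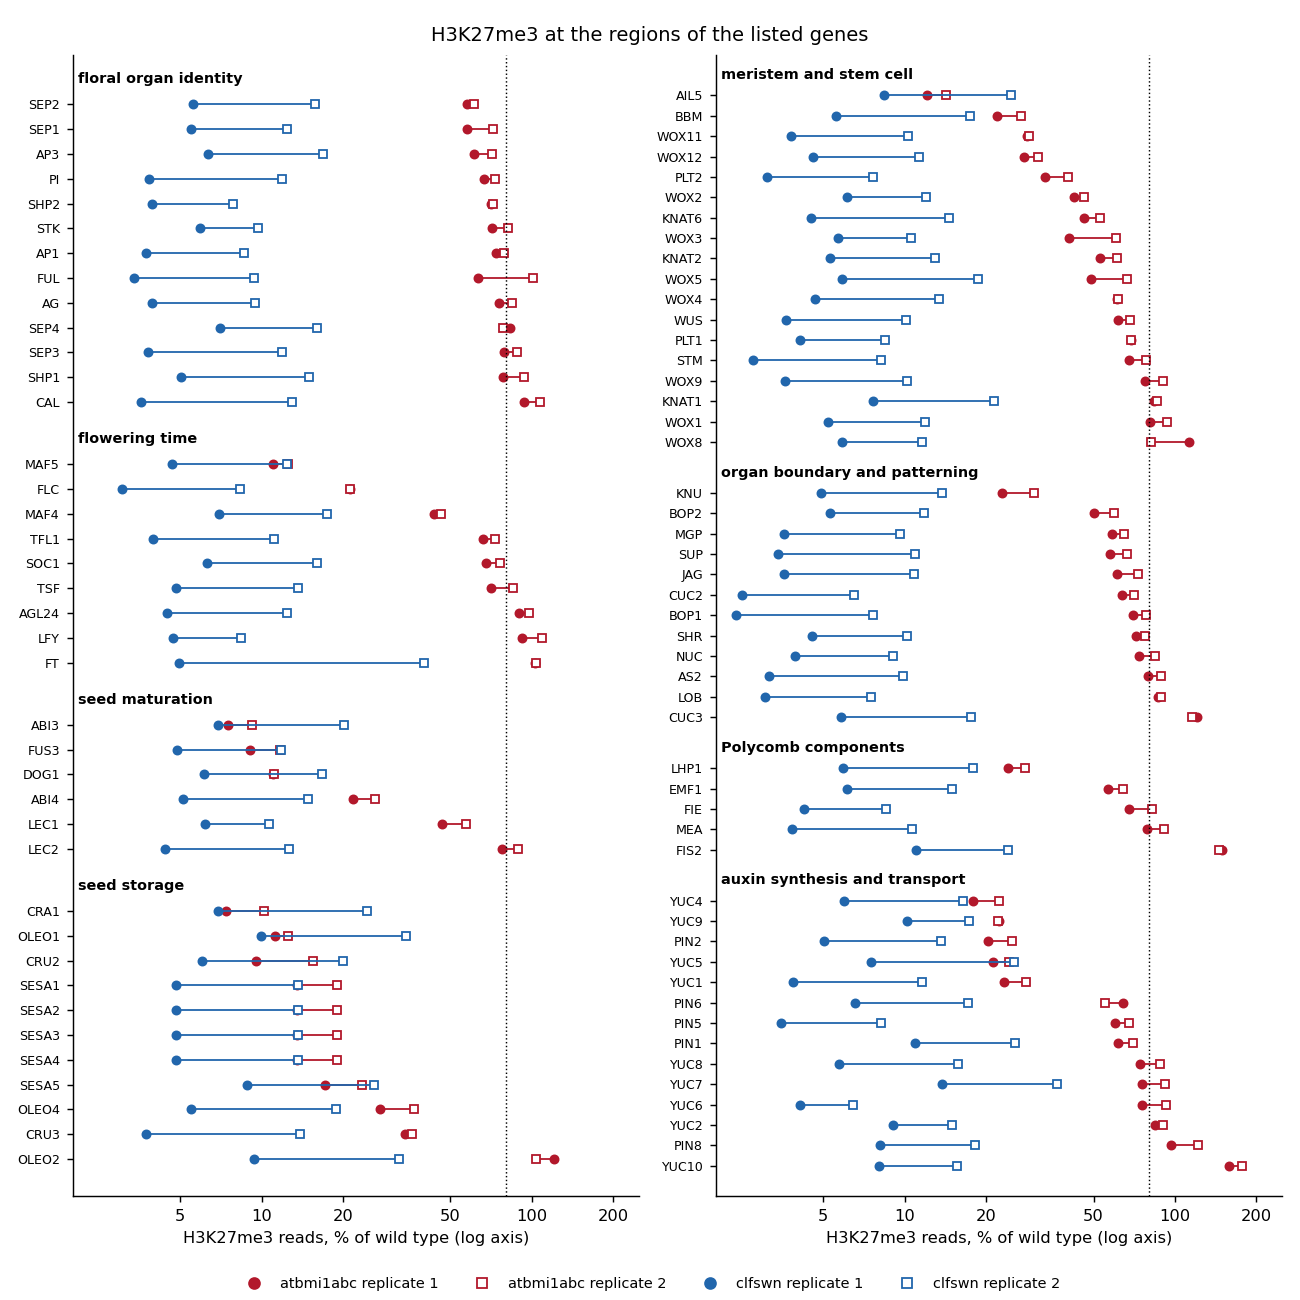
H3K27me3 at the regions of the 88 listed genes as a percentage of wild-type reads on a log axis, red for atbmi1abc and blue for clfswn, with filled circles for replicate 1, open squares for replicate 2 and a dotted line at 80%. The blue points stay together at the left in every list, while the red points meet them for seed genes such as ABI3 and CRA1 and stand near or beyond 80% for most floral genes.

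The median of the seed maturation factors was low in both mutants, as was that of the seed storage genes described next. Of 10 listed, 6 had a region, 5 reduced in both mutants and 1 mixed, and 4 passed the test in atbmi1abc. Their medians were 16.2% in atbmi1abc and 8.42% in clfswn, against 79.5% and 12.7% over all regions, and the median difference between the mutants was −0.94 against −2.70. All 6 had wild-type H2AK121ub and 4 had an RY core, where the shares over all shared regions were 73.2% and 48.4%.

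DOG1 (AT5G45830), the regulator of seed dormancy, had 202 and 157 reads in atbmi1abc against 1845 and 1426 in wild type, and 141 and 269 in clfswn against 2311 and 1606. The mutants overlapped at DOG1, with 11.0% and 11.1% in atbmi1abc and 6.14% and 16.8% in clfswn, and the difference of −0.11 did not pass the test (edgeR adjusted p = 0.91), against 2.55 relative to the median region (adjusted p = 1.7e-10). FUS3, a B3 factor like ABI3, was at 10.3% and 7.58%, a difference of −0.44 that did not pass (edgeR adjusted p = 0.64), against 2.22 relative to the median region (adjusted p = 1.5e-10). The exceptions in the list were the regions of the embryo regulators LEC2, with a difference of −3.48 and 83.0% of wild type left in atbmi1abc, and LEC1, with −2.68 and 51.4%. The LEC2 region is 21442 bp long, of which 3009 bp overlap the gene. That of LEC1 lies only upstream and is 1 of 3 regions of the gene. Neither value is thus that of the gene alone.

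Seed storage genes mostly resembled the maturation factors. All 11 listed had a region, in 8 distinct stretches because the 2S albumin genes SESA1, SESA2, SESA3 and SESA4 share 1, and 10 of the 11 genes were reduced in both mutants. In atbmi1abc 8 passed the test against wild type, the median was 16.0% with 10.2% in clfswn, and 10 had H2AK121ub and 9 an RY core, beside 73.2% and 48.4% of all shared regions. The region shared by the SESA genes passed and had both, and it enters these gene counts once for each of the genes. Relative to the median region the difference passed as positive at 10 of the 11, against 31.2% of all regions, and as negative at 0.

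The oleosin gene OLEO1 (AT4G25140), for the protein that coats oil bodies, had 78 and 63 reads in atbmi1abc against 706 and 509 in wild type, and 115 and 268 in clfswn against 1163 and 788. Its 11.2% and 12.5% in atbmi1abc lay within the 9.97% to 34.1% of clfswn, and its difference of 0.66 was the highest of the list without passing the test (edgeR adjusted p = 0.48), against 3.34 relative to the median region (adjusted p = 4.1e-10). The shared SESA region had 673 and 745 reads in atbmi1abc against 4987 and 3932. CRU3, a 12S globulin gene, was higher in atbmi1abc, at 34.9%, with a difference of −2.28 that passed. OLEO2 was the only storage gene in the clfswn-only class, at 111% in atbmi1abc and 17.4% in clfswn, and its region, which lies upstream of the gene, had no wild-type H2AK121ub peak.

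The listed floral organ identity genes, all MADS-box factors, kept more of their reads in atbmi1abc than most seed genes. All 13 had a region and passed the test for a lower ratio in clfswn than in atbmi1abc, where 73.8% of all regions passed. In atbmi1abc against wild type 0 were lower, against 14.1% of all regions. Their median was 76.1% in atbmi1abc and 6.82% in clfswn, against 79.5% and 12.7% over all regions, with a median difference of −3.37 against −2.70. Relative to the median region 10 of 13 were lower in clfswn, against 30.9% of all regions, and 0 higher, against 31.2%. Because their atbmi1abc levels sat close to the limit, 6 were classed as reduced in both, 6 as mixed and 1, CAL, as clfswn only.

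CAL (AT1G26310), which with AP1 sets the identity of the floral meristem, had 3289 and 2908 reads in atbmi1abc against 3518 and 2707 in wild type, and 195 and 480 in clfswn against 5471 and 3706. In atbmi1abc 1 replicate was below and 1 above wild type, and both clfswn replicates were low, with a difference of −3.88 (edgeR adjusted p = 0.00033). FUL had −3.83, with 63.0% and 101% in the 2 atbmi1abc replicates. The floral genes with the smallest differences were AP3 and SEP2, at −2.68 and −2.66, and AG, the C-class gene, had 79.8% in atbmi1abc and 6.09% in clfswn. AG had no wild-type H2AK121ub peak, and SEP1 and SEP2 had a peak in replicate 1 only.

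The flowering time genes were divided. Of 12 listed, 9 had a region, 5 reduced in both, 3 in clfswn only and 1 mixed, with medians of 72.0% and 7.61%. Of all regions 43.7% were reduced in both and 42.7% in clfswn only. LFY (AT5G61850), the master regulator of the floral meristem, had 1625 and 1423 reads in atbmi1abc against 1766 and 1301 in wild type, and 119 and 143 in clfswn against 2542 and 1709. The difference at LFY was −4.00 (edgeR adjusted p = 0.00026), and its atbmi1abc replicates lay on either side of wild type. AGL24, a MADS-box activator of flowering, gave −3.65.

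The repressors of flowering in the list differed among themselves. MAF5, a relative of FLC, had 66 and 64 reads in atbmi1abc against 606 and 519 in wild type, and 54 and 100 in clfswn against 1181 and 811. The mutants overlapped at MAF5, with 11.0% and 12.5% against 4.65% and 12.4%, and the difference of −0.61 did not pass (edgeR adjusted p = 0.51), while atbmi1abc passed against wild type (adjusted p = 8.6e-05) and the relative difference was 2.05 (adjusted p = 3.3e-07). MAF4 was at 44.9% and 11.0% and did not pass in atbmi1abc (adjusted p = 0.23), with a difference of −2.03 that passed (adjusted p = 0.026). FLC, the repressor silenced by cold, was at 21.3% in both atbmi1abc replicates and 3.05% and 8.36% in clfswn, and passed the test in atbmi1abc (adjusted p = 0.006) and for a lower ratio in clfswn (−2.08, adjusted p = 0.028). TFL1, which delays flowering, was at 69.4% and 6.65%, with a difference of −3.38. It was reduced in both mutants, while LFY and AGL24 were reduced in clfswn only. MAF1, MAF2 and MAF3 had no region. FT, which encodes the mobile flowering signal, stayed at 103% and 104% in atbmi1abc, with 4.97% and 40.1% in clfswn.

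Among meristem and stem cell genes, 18 of 21 had a region, all 18 with H2AK121ub in wild type, as 73.2% of all shared regions had. Of these 14 were reduced in both, against 43.7% of all regions, 3 in clfswn only and 1 was mixed, with medians of 56.8% and 7.88%. STM (AT1G62360), the homeobox gene that maintains the shoot meristem, had 6156 and 5567 reads in atbmi1abc against 9079 and 7133 in wild type, and 318 and 628 in clfswn against 11641 and 7710. It had the lowest difference of the list, −3.94 (edgeR adjusted p = 0.00034), followed by WOX9 with −3.78. WUS, the organizer gene of the shoot, was at 64.9% and 6.06%.

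AIL5 and BBM, AP2-type factors of embryos, were the highest in the meristem list. AIL5 (AT5G57390) had 135 and 122 reads in atbmi1abc against 1119 and 865 in wild type, and 378 and 617 in clfswn against 4500 and 2505. The percentages overlapped, 12.1% and 14.2% against 8.42% and 24.7%, and the difference was 0.14 (edgeR adjusted p = 0.88), against 2.81 relative to the median region (adjusted p = 2.4e-11). H2AK121ub over AIL5 was low in both mutants, with 303 and 334 reads in atbmi1abc and 366 and 376 in clfswn against 1177 and 1219 in wild type. BBM had a difference of −1.30 that did not pass and of 1.38 relative to the median region that did, with 24.4% of wild type in atbmi1abc and 9.88% in clfswn. WOX11 and WOX12, which act in root founding, also passed the test in atbmi1abc, at 28.6% and 29.4%.

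The organ boundary and patterning genes resembled the floral genes in their medians and differences. Of 15 listed, 12 had a region, with medians of 70.6% and 6.03%. By class 8 were reduced in both, against 43.7% of all regions, 2 in clfswn only and 2 were mixed. All 12 had H2AK121ub in wild type, while 10 of the 13 floral genes did. Of the 12, 11 were lower in clfswn than in atbmi1abc, where 73.8% of all regions were. Relative to the median region 10 were lower, against 30.9% of all regions. Besides LOB, BOP1 had a difference of −4.12, with 74.0% and 4.25%. BOP2, its paralog, had −2.79, and KNU, a zinc finger repressor that ends the floral stem cells, −1.68, which did not pass, and 0.99 relative to the median region, which did. KNU, at 26.4% and 8.22%, was the only gene of this list that passed the test in atbmi1abc.

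Of the Polycomb components, 17 genes listed and 16 matched to the annotation, 5 had a region. By class 2 were reduced in both, 1 in clfswn only and 2 were mixed. CLF, SWN, DRIP1 and DRIP2, the last pair encoding AtBMI1B and AtBMI1A, had no region. The highest difference was at LHP1 (AT5G17690), whose protein binds H3K27me3. Its upstream region had 459 and 376 reads in atbmi1abc against 1908 and 1348 in wild type, and 181 and 324 in clfswn against 3069 and 1819. The atbmi1abc replicates, 24.1% and 27.9%, lay above those of clfswn, 5.93% and 17.9%, and atbmi1abc passed against wild type (edgeR adjusted p = 0.016) while the difference did not (−1.33, adjusted p = 0.15), against 1.34 relative to the median region (adjusted p = 1.6e-07). EMF1 was at −2.66. The endosperm methyltransferase gene MEA had −3.73 and FIE, a PRC2 subunit, −3.63 in its upstream region. FIS2, another endosperm PRC2 subunit, was at 148% and 16.3%.

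The auxin genes split within their families. Of 19 listed, 14 had a region, 8 reduced in both, 3 in clfswn only and 3 mixed, with medians of 64.7% and 10.9%. Of all regions 43.7% were reduced in both and 42.7% in clfswn only. In atbmi1abc 5 were lower than wild type, against 14.1% of all regions. YUC10 (AT1G48910), a flavin monooxygenase of auxin synthesis, had 1297 and 1096 reads in atbmi1abc against 817 and 617 in wild type, and 112 and 149 in clfswn against 1399 and 959. It was thus above wild type in both atbmi1abc replicates, with a difference of −3.91 (edgeR adjusted p = 0.00026). Its relative YUC9 had 90 and 64 reads in atbmi1abc against 406 and 293, and 58 and 66 in clfswn against 575 and 385. YUC9 was low in both mutants, at 22.2% and 13.3%, and the difference of −0.74 did not pass (adjusted p = 0.42), against 1.91 relative to the median region (adjusted p = 6.4e-06). YUC6 had −4.05, and YUC5, by an upstream region, −0.74 without passing and 1.91 relative to the median region. YUC1, at 25.7% in atbmi1abc, the root efflux carrier PIN2, at 22.6%, and YUC4, with 17.9% and 22.4% in its replicates, passed the test there.

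Protein families read from the annotated product names, chosen after the values had been seen and with tandem copies that can share a region, differed in how they divided. Of the 5468 coding genes over a region, 44.3% lay in regions reduced in both mutants and 40.8% in regions reduced in clfswn only. Cell wall enzymes leaned to the first class, with 56.7% against 22.4% of 67 pectin methylesterase genes, 62.0% against 30.0% of 50 pectin lyase-like genes and 63.0% against 24.1% of 54 glycosyl hydrolases. The 45 late embryogenesis abundant genes, which protect drying seeds, had 55.6% against 35.6%, and the 103 cytochrome P450 genes 53.4% against 34.0%. Families of transcription factors differed, with 50.6% against 34.6% of 81 homeodomain genes and 41.7% against 25% of 36 NAC genes, while WRKY, bHLH and MYB genes and the lectins leaned to the second. There, 23.8% against 66.7% were counted among 42 lectin genes, 26.3% against 57.9% among 38 WRKY genes, 23.6% against 50.9% among 55 bHLH genes and 29.4% against 50.6% among 85 MYB genes. The 310 F-box genes had 38.1% against 44.8%.

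The 39 regions with a higher ratio in clfswn than in atbmi1abc were of 3 kinds. In 14, clfswn had more reads than wild type. Of these 5 were on chromosome 2, 4 of them between positions 1162 and 5984, and 8 on chromosome 3, 6 of them between 14194587 and 14203029, and 6 of the 14 lay over annotated rRNA. MIR5642b at chr2:2485-2894 had 11468 and 11665 reads in clfswn against 366 and 311 in wild type, with 116 and 245 in atbmi1abc against 509 and 330. MIR5642a had 53080 and 55797 reads in clfswn against 3143 and 2013. These 14 regions took 47.4% and 37.0% of all clfswn reads over the shared regions and 0.247% to 0.546% in the other 6 libraries. They also varied within atbmi1abc, where replicate 1 was lower than replicate 2 in 14 of 14, with a median gap of 1.79 on the log2 scale against 0.22 over all regions. The copy number of these sequences was not tested.

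Another 17 of the 39 had 3 or fewer reads in both atbmi1abc libraries, against 42 to 532 in wild type, and 8 to 160 in clfswn. Of them 12 lay on chromosome 5 between 8426035 and 15365712, a span with 234 shared regions, 4 on chromosome 2 and 1 on chromosome 3. 10 had H2AK121ub in both wild-type replicates, and 9 of those had 3 or fewer H2AK121ub reads in both atbmi1abc libraries as well, with 66 to 471 in wild type and 67 to 396 in clfswn. Both marks were thus near 0 there in atbmi1abc, and whether this DNA is present in the line was not tested.

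The remaining 8 were of neither kind and lay over 6 annotated genes and in 2 places with none. AtLEA4-1 (AT1G32560), a late embryogenesis abundant gene, had 34 and 26 reads in atbmi1abc against 325 and 214 in wild type, and 124 and 217 in clfswn against 352 and 167. The clfswn replicates, at 35.4% and 130%, were apart from each other and both above the 10.7% and 12.6% of atbmi1abc, with a difference of 2.58 (edgeR adjusted p = 0.0066). The others over genes were AT1G05510, AAP1, ABS2, AT5G37280 and AT5G38000. Without the 14 regions the number of higher calls was 25, and without the 17 it was 22, while the lower calls stayed at 4858 and 4863.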

How the data were processed

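H3K27me3 and H2AK121ub ChIP-seq of seedlings was read from tables in which the authors deposited raw read counts of a mutant and its wild-type library over peaks of both. Per the study's methods, uniquely placed reads were aligned to TAIR10 with Bowtie, so repeated sequence is under-represented, and peaks were called with MACS2 against a common input. The tables also hold rescaled M and A values and p-values of the authors' own comparison, not used here. Tables for the lhp1 mutant were not used.

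Counts of the 8 H3K27me3 libraries were fitted with edgeR 4.0.16 (R 4.3.3; quasi-likelihood, Benjamini-Hochberg threshold 0.05, at least 10 reads over 8 libraries, which all 6584 regions had), with equal library sizes and 1 block term per table, since the labels name the wild-type control of each mutant library. Counts in different tables cover different limits, so only ratios within a table were compared. Ratios add 1 read. DESeq2 1.42.0 was an alternative. Regions overlap by 1 bp or more and are placed by the limits of atbmi1abc replicate 1, as listed, the counting base of starts not being stated. Genes and sequences are from RefSeq TAIR10.1. Whether replicates are separate cultures is known only from the description as independent biological replicates. Named regions are the 10 lowest and highest differences past the threshold with separate replicates, at least 100 reads in each wild-type library and a gene symbol (3 were higher), the 10 lowest atbmi1abc values reduced in both and the 6 lowest clfswn values in clfswn only. In each list, up to 4 examples are those with the lowest and highest difference. Members and lists were chosen with earlier results of these data known. The script was tested on simulated data.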

Additional observations from a re-analysis of the deposited data

How the results depend on the processing

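The 2 clfswn replicates differ by more than 1 log2 unit in their median, which the unscaled fit counts as spread, and the fit has few residual degrees of freedom, so its calls depend on the replicates as given in the report. Depth outside peaks is unknown, and an unscaled ratio holds depth and level together. The wild-type reads of a region enter both its choice as a peak and its ratio. Regions reduced in both mutants had the higher share of H2AK121ub in all 15 other settings (75.4% to 96.2% against 55.7% to 85.4%, with a gap of 10.8 to 26.7 points), and the higher share of the RY core in all 14 that bear on it (56.0% to 62.6% against 38.4% to 43.1%). Leaving aside the regions above wild type in clfswn could not change either share, since those regions fall in neither class. Leaving out clfswn replicate 1 left both shares unchanged, and every setting uses the same libraries. The other settings were listed with the design, except those that leave aside regions or chromosome 5, those of the RY share and the single-table fits relative to the median region, which were chosen after seeing the data.

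For the difference between the mutants, scaling changed the counts of lower and higher regions from 4859 and 39 to 1855 and 2202 with TMM, to 2036 and 2054 with the median of the shared regions set to 0, and to 1586 and 1741 with the size factors of DESeq2. With reads over all nuclear peaks as library size the higher count was 1103, and with the median of regions called in both libraries set to 0 it was 804. Leaving out a replicate gave 0 to 6253 lower and 0 to 212 higher, and relative to the median region 1503 to 2023 lower and 1638 to 2009 higher. The higher count was 25 without the regions above wild type in clfswn, 22 without those with 3 or fewer atbmi1abc reads and 22 without chromosome 5. The regions removed in the first pair of these settings were themselves higher calls, so a lower count was bound to follow.

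For atbmi1abc the lower and higher counts, 931 and 2, became 2313 and 2279 with TMM, 2493 and 1870 with reads over peaks, 3278 and 1194 with regions called in both libraries, 2354 and 2193 with the shared median and 1902 and 1910 with DESeq2's size factors. DESeq2 with equal size factors gave 29 higher, and a minimum of 50 wild-type reads gave 1. Leaving out a replicate gave 0 to 3224 lower and 0 to 979 higher. For clfswn, 6503 and 14 became 1844 and 2057 with TMM, 2095 and 1704 with the shared median and 1598 and 1500 with DESeq2's size factors, and the higher count was 223 with reads over peaks, 49 with regions called in both libraries and 0 without the regions above wild type in clfswn. In that last edgeR fit 6503 regions had an unadjusted p under 0.05 in either direction.

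The block pairs each mutant library with the wild-type library its label names. Without the block, 5263 and 49 regions passed for the difference, 1383 and 19 for atbmi1abc and 6523 and 14 for clfswn, and of the 56 named genes 53 kept their call and 3 passed that had not.

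The median log2 ratio was −0.07 in atbmi1abc, −0.81 in clfswn and −0.74 for the difference with reads over peaks, −1.36 in clfswn and −1.07 for the difference with regions called in both libraries, and 0 throughout with the shared median. The number of regions reduced in both was 1527 with reads over peaks, 604 with the shared median and 1396 with a limit of 50%, and in clfswn only 1033 with the shared median and 4415 with a limit of 50%. The H2AK121ub shares of the 2 classes were 91.9% and 75.3% with reads over peaks, 87.2% and 65.3% with regions called in both libraries, 96.2% and 85.4% with the shared median, 88.1% and 64.6% with 50% overlap of the peaks, 87.1% and 64.8% with a limit of 67%, 88.8% and 68.8% with a limit of 50%, and 75.4% and 55.7% with 50% of the H2AK121ub peak covered. The share in clfswn only was 61.5% with a minimum of 50 wild-type reads. Leaving out a replicate gave 83.7% to 85.02% and 59.8% to 63.8%.

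The sign of the difference between the mutants turned from negative to positive with TMM at PRP3 (2.61), PSEUDOSRKA (2.59), OFP12 (2.51), AP3 (0.064), SEP2 (0.084), MAF4 (0.71), MAF5 (2.12), LEC1 (0.041), DOG1 (2.63), OLEO2 (0.10), CRU3 (0.48), BBM (1.45), KNU (1.06), EMF1 (0.076), LHP1 (1.42), YUC9 (1.98) and YUC5 (1.99). It did so with the shared median at PRP3 (2.54), PSEUDOSRKA (2.51), OFP12 (2.43), SEP2 (0.011), MAF4 (0.64), MAF5 (2.05), DOG1 (2.55), OLEO2 (0.028), CRU3 (0.40), BBM (1.38), KNU (0.99), EMF1 (0.0029), LHP1 (1.34), YUC9 (1.91) and YUC5 (1.91). It did so with reads over peaks at PRP3 (1.81), PSEUDOSRKA (1.78), OFP12 (1.70), MAF5 (1.32), DOG1 (1.82), BBM (0.64), KNU (0.26), LHP1 (0.61), YUC9 (1.17) and YUC5 (1.17). It did so with regions called in both libraries at PRP3 (1.47), PSEUDOSRKA (1.44), OFP12 (1.36), MAF5 (0.98), DOG1 (1.48), BBM (0.31), LHP1 (0.27), YUC9 (0.84) and YUC5 (0.84). Leaving out a replicate also turned the sign, with a range of −0.068 to 1.75 at MPL1, −0.40 to 1.32 at LBD40, −0.26 to 1.28 at ABI3, −0.32 to 1.51 at CRA1, −0.76 to 0.52 at PRP3, −0.62 to 0.32 at PSEUDOSRKA, −1.09 to 0.57 at OFP12, −1.34 to 0.090 at MAF5, −0.85 to 0.61 at DOG1, −0.24 to 1.54 at OLEO1, −0.63 to 0.92 at AIL5 and −1.61 to 0.16 at YUC5, genes whose differences did not pass the test. The cause of these changes was not tested.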
